A study of Mus musculus with 13 samples.

Results

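Sprouty, Spred and PEA3 genes are transcripts by which cells report and restrain signalling through the kinase ERK, and 10 of them were followed here across mouse mammary tumour cell lines with and without JNK (c-Jun N-terminal kinase). The 10 were chosen by name: the Sprouty genes Spry1, Spry2 and Spry4, the Spred genes Spred1, Spred2 and Spred3, the PEA3 genes Etv1, Etv4 and Etv5, and Phlda1. All 10 were among the 23845 genes of the deposited tables, and all 10 passed the filter on low counts that left 13058 genes for testing. The data were RNA-seq profiles of 7 primary mammary tumour lines labelled JNK knockout and 6 labelled wild type (WT), all of strain FVBN/J, made to study how loss of JNK bears on breast cancer driven by HER2. The labels do not say which JNK alleles were removed, by which Cre or promoter, or whether the tumours carried an Erbb2 transgene, and they give no age. Each sample was a line of its own, grown per the labels' protocols with EGF at 20 ng/ml and insulin at 10 μg/ml in medium holding 10% serum, after isolation on collagen I in 2% serum, so a ligand of the EGF receptor was present in both groups. The names of the knockout and WT lines start with different letters, and a difference in colony or handling cannot be told apart from genotype. WT replicates 4 and 5 have names with a shared number and may come from 1 animal, and p-values measure the spread between these lines only.

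Growth factor receptors activate RAS, which passes the signal through RAF and MEK to the kinase ERK. Active ERK induces genes of several kinds, among them inhibitors that act back on the pathway. Sprouty proteins restrain signalling between the receptor and RAF, and Spred proteins, which share a cysteine-rich C-terminal domain with them, bring the RAS-inactivating protein neurofibromin to the membrane. The PEA3 factors are ETS transcription factors whose own transcription is raised by ERK and held down by the repressor Capicua, and Etv4 (PEA3) is known as a transcript of mouse mammary tumours driven by the rat homologue of Erbb2. Phlda1 encodes a pleckstrin homology-like protein whose transcript is commonly read, with Spry4, Etv4 and Etv5, as a measure of ERK output.

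Libraries held 38298602 to 46689809 expected counts. The labels were checked first with the JNK genes. Mapk8 (JNK1) was 4.33 to 8.33 CPM in knockout lines and 23.95 to 37.3 CPM in WT lines, and Mapk9 (JNK2) was 8.90 to 24.7 CPM in knockout lines and 55.0 to 73.1 CPM in WT lines, with no overlap for either gene. CPM is the count relative to the TMM-scaled library size (counts per 1e+06). All 13 lines held epithelial transcripts: the summed CPM of 6 epithelial markers was 1070 to 5465 in knockout lines and 6040 to 6933 in WT lines. The sum of 6 basal epithelial markers was 613 to 24361 CPM in knockout lines and 55.8 to 261 CPM in WT lines. Every knockout line thus lay below every WT line in the epithelial sum and above every WT line in the basal sum. The part of these sums in the results below was not tested. Of the single markers, Krt18, Krt5, Krt14 and Krt17 did not overlap between the groups. The others overlapped, among them Epcam (40.8 to 608 CPM in knockout lines, 509 to 1407 CPM in WT lines). Knockout replicate 2 had the lowest epithelial sum, the highest basal sum (at most 5889 CPM in the other knockout lines) and the highest sum of 10 fibroblast and mesenchymal markers (4178 CPM, against at most 744 CPM in the other knockout lines). WT replicate 3 had the highest mesenchymal sum among WT lines (1142 CPM, against at most 564 CPM in the other WT lines). It also had the highest sum of 5 glial and neural crest markers (551 CPM, of which Sox10 made 544 CPM). Vim made 4042 CPM of the mesenchymal sum in knockout replicate 2. In WT replicate 3 Vim made 654 CPM of it, against at most 524 CPM in the other WT lines. Col1a1 (184 CPM), Col1a2 (160 CPM), Col3a1 (61.4 CPM) and Pdgfrb (66.0 CPM) were also highest there. The other WT lines held at most 9.46, 12.4, 0.917 and 28.8 CPM of these 4. Neither line was the highest of its group in Thy1 or Dcn, and WT replicate 3 was not the highest WT line in Pdgfra or Zeb1. Endothelial, adipocyte and most leukocyte markers were under 1 CPM in every line, including Ptprc and Pecam1.

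Spry4 and Etv5 were lower in knockout lines and none of the 10 genes was higher, that is 2 lower and 0 higher in edgeR's quasi-likelihood test at a Benjamini-Hochberg adjusted p under 0.05. Over all genes tested 4.17% were lower and 4.33% were higher by the same rule. Log2 fold changes, given throughout as knockout minus WT, were negative for 9 of the 10 genes and for 49.4% of all genes tested, with a median of -0.43 for the 10 and 0.01 for all. At an unadjusted p under 0.05, 4 of the 10 were lower and 0 were higher. Of all 13058 genes tested, 1639 were lower and 1792 were higher by that rule, together 26.3%. DESeq2 and limma-voom also called 0 of the 10 higher. The 2 called lower were Etv1 and Etv5 by DESeq2, which gave no p for Spry4, and Spry4 and Etv1 by limma-voom. Without both knockout replicate 2 and WT replicate 3, again 2 of the 10 were lower and 0 higher, and 9 of 13 fits that each left out 1 line called 1 of the 10, each time Spry4. In bulk RNA, fewer cells that express a gene and less RNA per cell cannot be told apart.

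**Figure D1:**
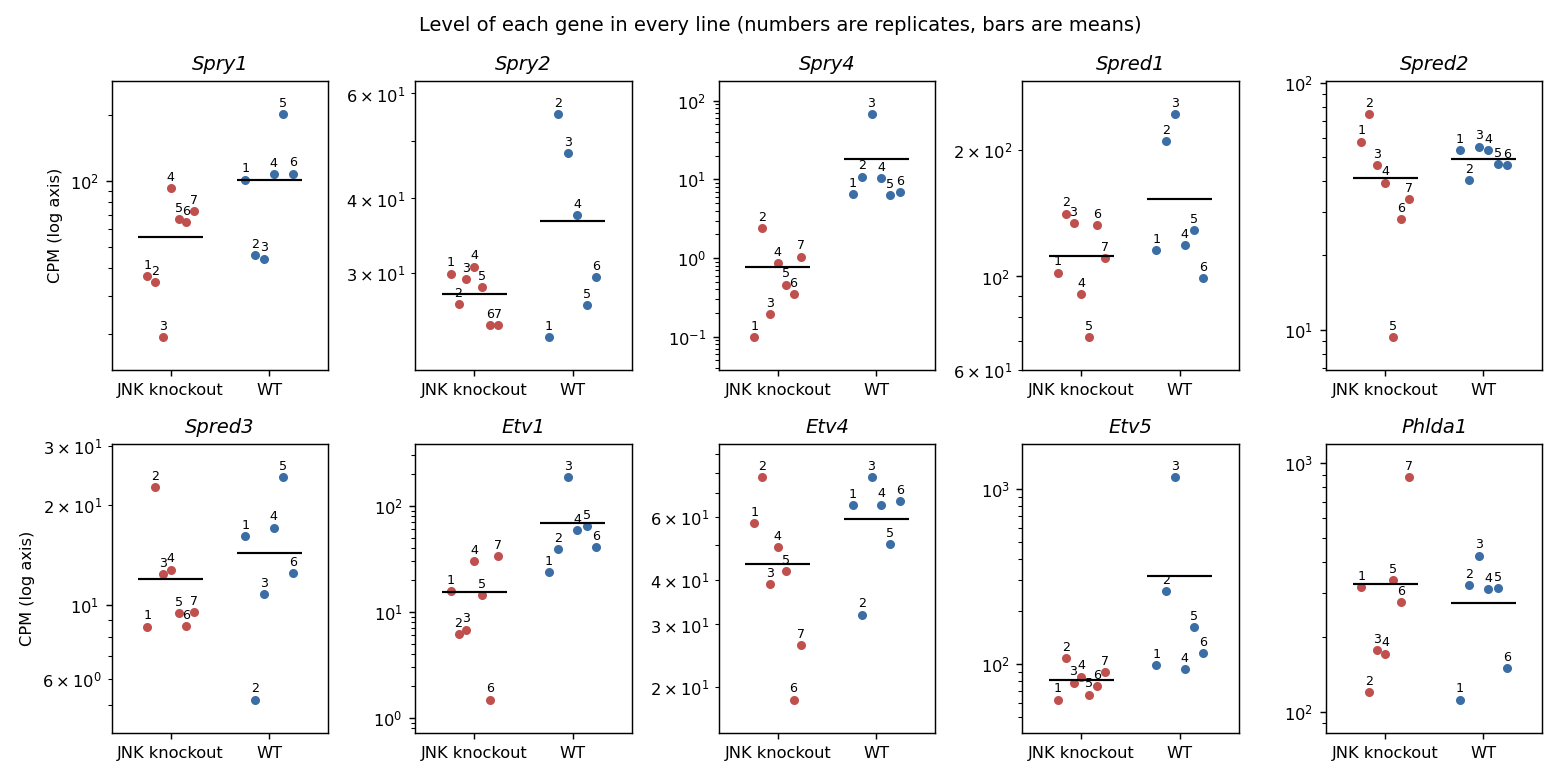
CPM of each of the 10 genes in every line, on log axes, with 7 JNK knockout lines (red, left) and 6 WT lines (blue, right) numbered by replicate and black bars for group means. Spry4 is the gene whose groups do not overlap, with knockout lines at 0.0999 to 2.38 CPM and WT lines at 6.32 to 67.1 CPM.

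Spry4 (chromosome 18, 38586247 to 38601415, GRCm38) showed the widest difference of the 10. It encodes a Sprouty protein whose transcript follows ERK activity closely. Knockout replicates 1 to 7 held 4, 91, 8, 34, 17, 16 and 47 reads of it, which is 0.0999, 2.38, 0.192, 0.863, 0.460, 0.346 and 1.04 CPM. WT replicates 1 to 6 held 275, 465, 2489, 467, 310 and 292 reads, which is 6.49, 10.9, 67.1, 10.3, 6.32 and 6.91 CPM. Every knockout line lay below every WT line, as was so for 1.97% of all genes tested, and the lowest WT line was 2.65-fold above the highest knockout line. The groups averaged 0.770 ± 0.790 CPM in knockout lines (SD, n = 7) and 18.0 ± 24.1 CPM in WT lines (SD, n = 6). By edgeR this was -4.54 on the log2 scale, with an SE of 0.84 and an adjusted p of 0.0083.

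WT replicate 3 alone set much of the WT mean of Spry4. The other 5 WT lines averaged 8.18 ± 2.22 CPM and spanned 6.32 to 10.9 CPM, which is 10.6-fold the knockout mean, while WT replicate 3 was 8.20-fold above those 5. Without WT replicate 3 the log2 fold change of Spry4 was -3.41 (adjusted p = 0.012), without knockout replicate 2 it was -5.16 (adjusted p = 0.0047), and without both it was -4.02 (adjusted p = 0.0031). The call held in all 13 fits that left out 1 line, with adjusted p from 0.0047 to 0.020, and in all 11 fits with another scaling, filter, scale or tool that gave a p, while DESeq2 gave none for this gene. On log2(TPM + 1), a scale that understates the change of low genes, the difference was -2.21 (adjusted p = 0.0052).

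The other Sprouty genes were far more abundant than Spry4 and overlapped between groups. Spry1 (chromosome 3, 37639947 to 37644598) was 36.8, 34.7, 19.4, 92.5, 67.0, 64.9 and 73.0 CPM in knockout replicates 1 to 7. In WT replicates 1 to 6 it was 101, 45.8, 44.2, 108, 201 and 108 CPM. WT replicates 2 and 3 lay inside the knockout range, while the other 4 WT lines lay above every knockout line. The log2 fold change of Spry1 was -0.87 (SE 0.40), with an unadjusted p of 0.047 and an adjusted p of 0.18. Without WT replicate 5, the line highest in Spry1, it was -0.55 (adjusted p = 0.39), and limma-voom with sample weights gave -1.22 (adjusted p = 0.021).

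Spry2 (chromosome 14, 105891947 to 105896819), whose protein also binds the ubiquitin ligase CBL, varied little among knockout lines. Its lowest, median and highest values were 24.5, 28.4 and 30.8 CPM in knockout lines, against 23.4, 33.5 and 55.3 CPM in WT lines. All 7 knockout lines lay between the lowest and the highest WT line. Its log2 fold change was -0.40 (SE 0.19, adjusted p = 0.21).

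Within the WT group the Sprouty genes were not high in the same lines. WT replicates 2 and 3 had the lowest Spry1 and the highest Spry2 and Spry4 of the 6 WT lines. Across WT lines log2 CPM of Spry1 and Spry4 had a Pearson's r of -0.72 (exact permutation p = 0.019, 0.078 adjusted over 8 relations) and a Spearman's rho of -0.83 (exact permutation p = 0.058, adjusted p = 0.23), and r was -0.39 without WT replicates 2 and 3, so the relation rests on those lines. Across knockout lines r was 0.35 (exact permutation p = 0.43, adjusted p = 0.70) and rho 0.36 (exact permutation p = 0.44, adjusted p = 0.80), and r was 0.93 without knockout replicates 2 and 3.

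Summed over the family in TPM, a scale per transcript length, Sprouty transcripts came to 39.3 to 94.3 TPM in knockout lines and 92.9 to 188 TPM in WT lines. Knockout replicate 4 at 94.3 TPM and WT replicate 2 at 92.9 TPM were the lines that overlapped. Spry1 made up 58.9 ± 13.7% of the family sum in knockout lines (SD, n = 7) and 62.2 ± 21.5% in WT lines (SD, n = 6). Spry4 made up 0.0606 to 1.81% of it in knockout lines and 1.39 to 25.5% in WT lines, with WT replicate 3 at the upper end. TPM values of all genes ran lower in knockout lines, by a median of 0.23 on the log2(TPM + 0.1) scale, so a general difference of that size is part of any TPM difference given here.

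**Figure D2:**
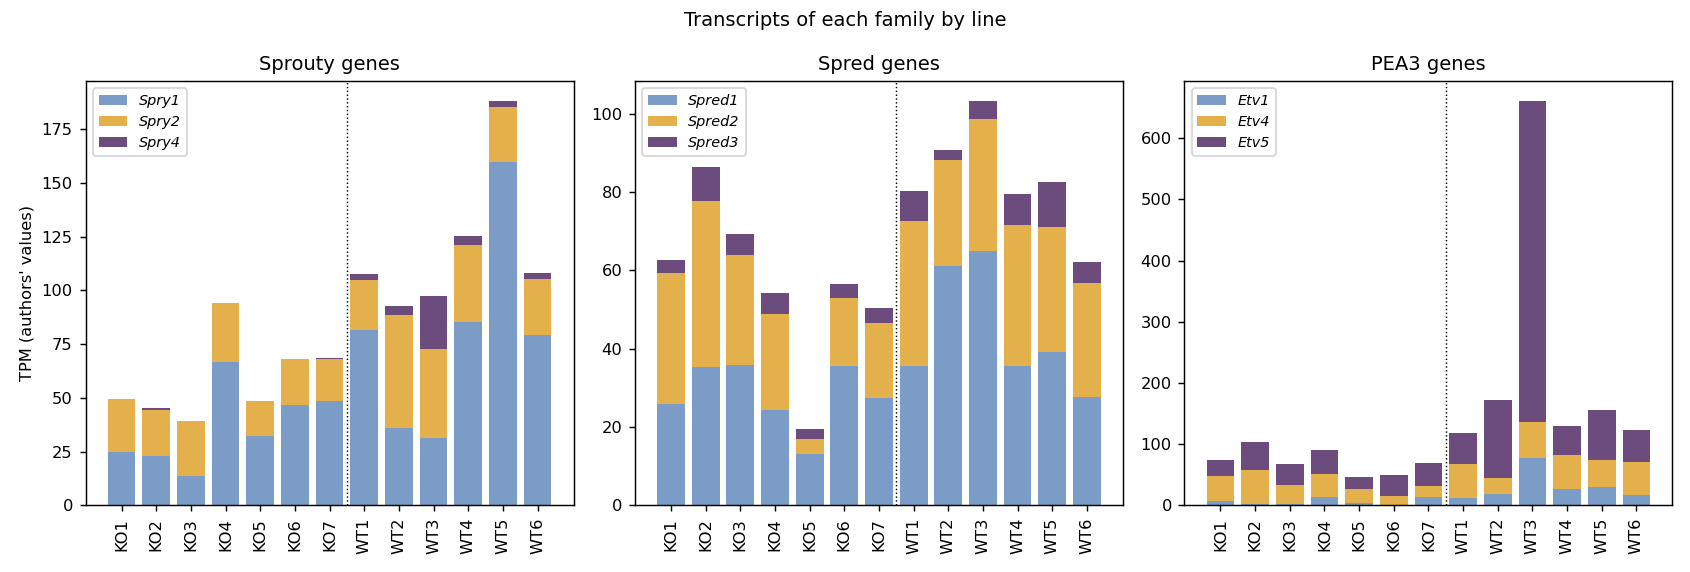
Stacked TPM of the Sprouty, Spred and PEA3 genes in each of 7 JNK knockout (KO, left) and 6 WT lines (right of the dotted line). Spry4 is a thin layer outside WT replicate 3, the PEA3 sum reaches 661 TPM in that line, and the Spred sum is lowest, at 19.6 TPM, in knockout replicate 5.

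The PEA3 genes Etv1 and Etv5 had the next largest differences, and both were also highest in WT replicate 3. Etv5 (chromosome 16, 22381309 to 22439719) was 62.8, 108, 78.5, 84.8, 66.9, 74.9 and 89.9 CPM in knockout replicates 1 to 7. WT replicates 1 to 6 held 99.0, 260, 1166, 94.1, 163 and 115 CPM. In CPM the WT lines were above all knockout lines but 1, and that line, knockout replicate 2, lay above WT replicates 1 and 4. In TPM the groups did not overlap, though by a small margin, at 20.2 to 45.0 TPM in knockout lines and 46.9 to 524 TPM in WT lines. TPM ran lower in knockout lines in general, as given above, and the share of all genes that are separate in TPM was not counted.

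The log2 fold change of Etv5 was -1.97 (SE 0.55, adjusted p = 0.043, edgeR), and its size and its call rested on single lines. WT replicate 3 was 7.98-fold above the mean of the other 5 WT lines, which averaged 146 ± 69.0 CPM, or 1.81-fold the knockout mean. Without WT replicate 3 the log2 fold change was -0.85 (adjusted p = 0.053), and without both that line and knockout replicate 2 it was -0.94 (adjusted p = 0.041). Among the 13 fits with 1 line left out the call held in 3 and was lost without any single knockout line or without WT replicate 2, 3 or 5, with adjusted p up to 0.084. It was also lost with limma-voom (log2 fold change -1.28, adjusted p = 0.12) and with sample weights (-0.67, adjusted p = 0.14), on log2(TPM + 1) (-1.49, adjusted p = 0.060) and on log2(TPM + 0.1) (-1.51, adjusted p = 0.057). Apart from the fits leaving a line out, the call held in 8 of 12 alternative fits, among them DESeq2 (adjusted p = 0.004).

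Etv1 (chromosome 12, 38779380 to 38870484) was 15.8, 6.23, 6.81, 30.1, 14.4, 1.49 and 33.7 CPM in knockout replicates 1 to 7. It was 23.7, 39.0, 187, 59.1, 64.6 and 41.1 CPM in WT replicates 1 to 6. In 5 knockout lines Etv1 was under the WT minimum, and knockout replicates 4 and 7 lay above WT replicate 1 and below the rest. Its log2 fold change of -2.15 (SE 0.64) did not pass the test (adjusted p = 0.053). DESeq2 (adjusted p = 0.0055), limma-voom (0.042), limma-voom with sample weights (0.023), log2(TPM + 1) (0.020) and log2(TPM + 0.1) (0.024) each called it lower. So did the fit without knockout replicate 6, the line lowest in Etv1 (-1.95, adjusted p = 0.047), while without WT replicate 3 the log2 fold change was -1.56 (adjusted p = 0.12).

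Etv4 (chromosome 11, 101769742 to 101785371), the factor that gave the family its name, showed no such separation. Its lowest, median and highest values were 18.5, 42.3 and 77.7 CPM in knockout lines, against 32.0, 65.0 and 77.7 CPM in WT lines. The highest lines of both groups, knockout replicate 2 and WT replicate 3, were level, and the log2 fold change was -0.42 (SE 0.30, adjusted p = 0.39). WT replicate 2 was second highest of the WT lines in Etv5 and lowest in Etv4, and WT replicate 3 was highest in both.

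The family sum of PEA3 transcripts was 46.1 to 103 TPM in knockout lines and 118 to 661 TPM in WT lines, and these ranges did not overlap. The general difference in TPM given above is part of this, and how often other sums or genes are separate in TPM was not counted. Etv5 and Etv4 together made up most of it in both groups. The share of Etv1 was 1.27 to 18.8% in knockout lines and 9.48 to 21.01% in WT lines, that of Etv4 27.1 to 56.0% in knockout lines and 8.98 to 47.7% in WT lines, and that of Etv5 35.7 to 69.5% in knockout lines and 36.3 to 79.3% in WT lines.

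Of the pairs of genes examined across the lines of each group, Spry4 and Etv5 had the highest r in both groups, and no relation passed the correction. For log2 CPM of Spry4 and Etv5 Pearson's r was 0.88 in knockout lines (exact permutation p = 0.012, 0.078 adjusted over 8 relations) and 0.92 in WT lines (exact permutation p = 0.097, adjusted p = 0.26). Spearman's rho was 0.86 in knockout lines (exact permutation p = 0.024, adjusted p = 0.19) and 0.49 in WT lines (exact permutation p = 0.36, adjusted p = 0.80). Without the 2 lines farthest from the median of Spry4, r was 0.57 in knockout lines and 0.55 in WT lines. For Spry4 with Etv4, r was 0.22 in knockout lines (exact permutation p = 0.64, adjusted p = 0.74) and 0.34 in WT lines (exact permutation p = 0.44, adjusted p = 0.70), while rho was 0.18 in knockout lines (exact permutation p = 0.71, adjusted p = 0.95) and 0.37 in WT lines (exact permutation p = 0.50, adjusted p = 0.80). Without the 2 farthest lines their r was 0.09 in knockout lines and -0.65 in WT lines. For Etv4 with Etv5, r was 0.22 in knockout lines (exact permutation p = 0.65, adjusted p = 0.74) and 0.10 in WT lines (exact permutation p = 0.95, adjusted p = 0.95), while rho was 0.11 in knockout lines (exact permutation p = 0.84, adjusted p = 0.96) and 0.03 in WT lines (exact permutation p = 1, adjusted p = 1). Without knockout replicates 2 and 6 the r of Etv4 with Etv5 was -0.69 in knockout lines, and without WT replicates 2 and 5 it was 0.997 in the 4 remaining WT lines, so these low r values rest on those lines.

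**Figure D3:**
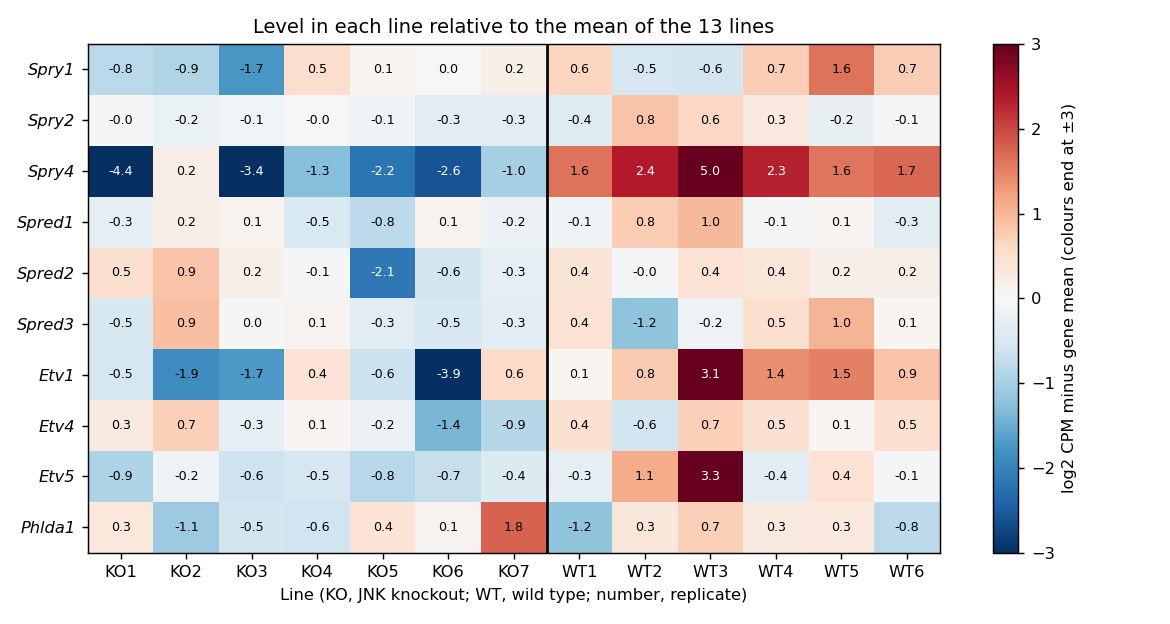
Log2 CPM of each gene in each line minus the gene's mean over 13 lines, with 7 JNK knockout lines (KO) left of the black line and 6 WT lines right of it (red, higher; blue, lower). Spry4 is above its mean in all 6 WT lines and below it in all knockout lines but replicate 2, and WT replicate 3 is the highest WT line for 7 of the 10 genes.

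The Spred genes differed little between the groups. Spred1 (chromosome 2, 117121374 to 117182279), the most abundant Spred transcript on average, had a lowest, median and highest value of 71.8, 110.5 and 141 CPM in knockout lines, against 99.0, 124 and 243 CPM in WT lines. WT replicates 2 and 3, which were also highest in Spry2, Spry4 and Etv5, stood above every knockout line, and the other 4 WT lines lay within the knockout range. Its log2 fold change was -0.45 (SE 0.23, adjusted p = 0.24), and -0.27 without WT replicate 3 (adjusted p = 0.47).

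Spred2 (chromosome 11, 19924375 to 20024026) had a lowest, median and highest value of 9.36, 39.4 and 74.5 CPM in knockout lines, against 40.5, 50.1 and 55.2 CPM in WT lines. In 4 knockout lines Spred2 was under the WT minimum and in 2 it was over the WT maximum, while the WT lines lay close together. The log2 fold change was -0.26 (SE 0.33, adjusted p = 0.67). It was -0.08 (adjusted p = 0.85) without knockout replicate 5, the line lowest in Spred2, and -0.46 (adjusted p = 0.37) without knockout replicate 2, the highest. Knockout replicate 5 also had the lowest Spred1 of all 13 lines.

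Spred3 (chromosome 7, 29158829 to 29170411) was the least abundant Spred transcript. Its lowest, median and highest values were 8.61, 9.50 and 22.6 CPM in knockout lines, against 5.20, 14.3 and 24.2 CPM in WT lines. All knockout lines lay between the lowest and the highest WT line, and the log2 fold change was -0.25 (SE 0.33, adjusted p = 0.66). Leaving out knockout replicate 2 gave -0.48 (adjusted p = 0.33), and leaving out WT replicate 5 gave -0.04 (adjusted p = 0.95). Exons of Spred3 overlap those of Ggn on the opposite strand, which reached 4.34 CPM, and reads of the pair could not be separated here. Summed Spred transcripts came to 19.6 to 86.4 TPM in knockout lines and 62.2 to 103 TPM in WT lines, and Spred1 made up 51.8 ± 10.3% of the sum in knockout lines (SD, n = 7) and 51.9 ± 10.5% in WT lines (SD, n = 6).

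Phlda1 (chromosome 10, 111506286 to 111508645) was the most abundant of the 10 genes in TPM and the only one with a positive log2 fold change. Its lowest, median and highest values were 120, 276 and 879 CPM in knockout lines, against 112, 313 and 425 CPM in WT lines. Knockout replicate 7 alone exceeded the highest WT line, and the other knockout lines lay within the WT range. The log2 fold change of 0.26 (SE 0.44, adjusted p = 0.76) turned to -0.22 without knockout replicate 7 (adjusted p = 0.73) and to -0.12 on both TPM scales (adjusted p = 0.87).

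**Figure D4:**
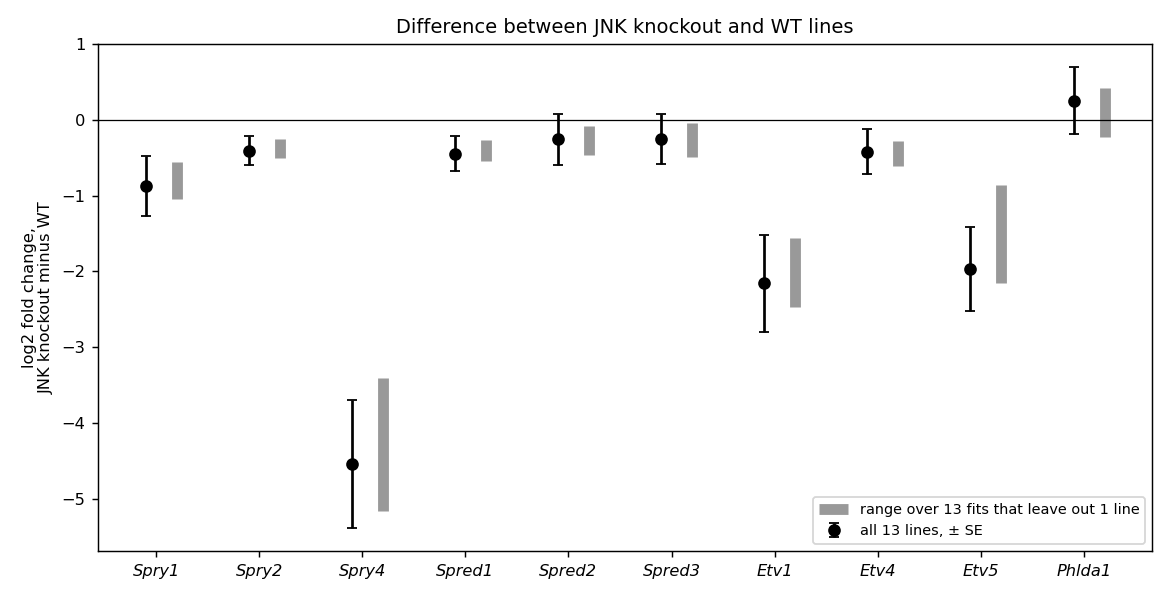
Log2 fold change (JNK knockout minus WT) of each gene with its SE from all 13 lines (points and error bars) and its range over 13 fits that each left out 1 line (grey bars). Spry4 stays between -5.16 and -3.41, Etv5 spans -2.16 to -0.85, and Phlda1 lies on both sides of 0.

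The order of the genes by mean TPM differed between the groups. In knockout lines it was Phlda1 (279 TPM), Spry1 (36.5 TPM), Etv5 (33.9 TPM), Etv4 (31.4 TPM), Spred1 (28.2 TPM), Spred2 (24.1 TPM), Spry2 (22.3 TPM), Etv1 (6.001 TPM), Spred3 (4.72 TPM) and Spry4 (0.263 TPM). Among these neighbours the ranges over lines were separate for Phlda1 and Spry1, for Spry2 and Etv1 and for Spred3 and Spry4, and overlapped for the others. In WT lines it was Phlda1 (274 TPM), Etv5 (147 TPM), Spry1 (78.9 TPM), Etv4 (48.9 TPM), Spred1 (44.0 TPM), Spry2 (34.2 TPM), Spred2 (32.5 TPM), Etv1 (30.2 TPM), Spry4 (6.91 TPM) and Spred3 (6.59 TPM), and all neighbours overlapped. The place of Etv5 above Spry1 and of Spry4 above Spred3 in WT lines rested on WT replicate 3: without it Etv5 averaged 72.0 TPM and Spry1 88.4 TPM, and Spry4 averaged 3.32 TPM and Spred3 6.996 TPM. By line, WT replicate 3 was highest of all 13 for 4 of the 10 genes and highest of the WT lines for 7 of them, and within the knockout group replicate 2 was highest for 6 of the 10, including Spry4 and Etv5. Both lines also had the highest mesenchymal marker sum of their group, much of it Vim. WT replicate 3 also stood above the other WT lines in Col1a1, Col1a2, Col3a1 and Pdgfrb, as given above. The part of these markers in the gene levels was not tested beyond leaving the lines out.

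The sequences just upstream of the RefSeq start sites (GRCm38.p6) were read for the members. Of these, 7 of 10 had a sequence of full length under their symbol, all but Spry4, Etv4 and Phlda1. The 250 bases upstream of 4 starts are shown, those of Etv1 and Etv5 because these were the PEA3 genes with large differences, and those of Spry2 and Spred1 because these genes were highest in the same WT lines as Etv5. None of the 4 windows overlaps an annotated exon (GENCODE M21). Capitals mark matches on either strand to GGAA, the core of ETS sites, or to TCAATGAA, a Capicua octamer.
Etv5, second start, chr16:22438369-22438618, minus strand: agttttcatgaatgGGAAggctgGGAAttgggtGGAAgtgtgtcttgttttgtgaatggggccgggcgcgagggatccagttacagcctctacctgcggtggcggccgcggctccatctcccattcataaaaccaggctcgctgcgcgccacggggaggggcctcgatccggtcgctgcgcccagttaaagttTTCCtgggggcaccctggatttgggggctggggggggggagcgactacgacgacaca
Etv1, first start, chr12:38779832-38780081, plus strand: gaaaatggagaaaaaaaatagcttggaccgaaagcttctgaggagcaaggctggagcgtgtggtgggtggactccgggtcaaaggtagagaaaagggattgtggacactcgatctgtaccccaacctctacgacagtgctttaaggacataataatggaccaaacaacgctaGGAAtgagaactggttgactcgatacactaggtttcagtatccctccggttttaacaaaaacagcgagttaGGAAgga
Spry2, chr14:105896820-105897069, minus strand: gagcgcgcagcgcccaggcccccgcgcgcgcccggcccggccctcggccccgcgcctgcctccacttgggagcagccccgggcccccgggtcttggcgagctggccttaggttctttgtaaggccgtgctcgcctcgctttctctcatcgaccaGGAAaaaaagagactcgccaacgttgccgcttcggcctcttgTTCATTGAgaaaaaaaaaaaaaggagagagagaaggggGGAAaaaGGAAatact
Spred1, chr2:117120821-117121070, plus strand: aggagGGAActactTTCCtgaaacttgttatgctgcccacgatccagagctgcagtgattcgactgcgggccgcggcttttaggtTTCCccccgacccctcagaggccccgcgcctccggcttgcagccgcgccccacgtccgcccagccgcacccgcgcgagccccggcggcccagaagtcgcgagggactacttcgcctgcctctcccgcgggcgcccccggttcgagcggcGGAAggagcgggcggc

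GGAA occurred 4 times upstream of this Etv5 start, 2 times upstream of Etv1, 3 times upstream of Spry2 and 4 times upstream of Spred1. It is a common word: 93.4% of 32851 windows of this length upstream of RefSeq starts held it at least once and 33.4% at least 4 times. Upstream of Spred2 it occurred 7 times, a number reached by 3.82% of windows, and in the first Etv5 window it did not occur. Of the Capicua octamers searched, TCAATGAA was found upstream of Spry2 (0.642% of windows hold it) and TGAATGAA upstream of Spred3 (1.08%), while TGAATGGA (1.01%) and TCAATGGA (0.521%) had no match in the windows of the 7 genes. The AP-1 site TGANTCA, the sequence bound by Jun and Fos proteins, and the site TGACGTCA had no match there either, against 6.75% and 1.55% of all windows. Octamers and GGAA did not overlap in the 4 sequences shown.

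Other genes of the pathway were examined as 5 lists, whose counts stand against 4.33% higher and 4.17% lower over all genes tested, with a median log2 fold change of 0.01. Among 34 tested receptors, RAS proteins and kinases of the cascade, 0 rose and 1 fell in edgeR's test, with a median log2 fold change of -0.10 (4 higher and 3 lower at an unadjusted p under 0.05; DESeq2 called 2 higher and 1 lower, limma-voom 0 and 1). The fallen gene was Rras, a small GTPase related to RAS, at 45.8 ± 14.5 CPM in knockout lines (SD, n = 7) and 80.1 ± 16.01 CPM in WT lines (SD, n = 6), which gave an adjusted p of 0.031. That call was lost without knockout replicate 1, 3 or 7 or WT replicate 3, 4, 5 or 6, with log2 fold changes from -0.80 to -0.76 in place of -0.81 and adjusted p up to 0.064. The call of Rras was also lost with WT replicates 4 and 5 summed.

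Of 23 tested inhibitors and repressors of the pathway other than the 10, 1 rose and 3 fell, with a median of -0.26. The fallen genes included 2 for RAS GTPase-activating proteins. Dab2ip was 73.6 ± 23.2 CPM in knockout lines and 157 ± 21.6 CPM in WT lines (adjusted p = 0.0084), and Rasa1 was 104 ± 36.3 CPM in knockout lines and 217 ± 24.8 CPM in WT lines (adjusted p = 0.010). For both, every knockout line lay below every WT line and the call held in all 13 fits that left out 1 line. Lrig1 encodes a membrane protein that lowers ERBB receptor levels, and it was 119 ± 26.6 CPM in knockout lines and 220 ± 66.1 CPM in WT lines (adjusted p = 0.016). Rasa3, a further RAS GTPase-activating protein gene, went the other way, at 84.1 ± 44.8 CPM in knockout lines and 25.7 ± 18.3 CPM in WT lines (adjusted p = 0.023). Its call was lost without WT replicate 1, 5 or 6, with adjusted p up to 0.052, and with WT replicates 4 and 5 summed. Nf1, whose product neurofibromin is the partner of Spred proteins, was named after its values were seen: it was 34.0 ± 10.5 CPM in knockout lines and 67.3 ± 44.1 CPM in WT lines, a difference that did not pass (log2 fold change -0.99, adjusted p = 0.086). Without both knockout replicate 2 and WT replicate 3, 1 gene of this list rose and 5 fell.

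Among 13 binding partners and modifiers of Sprouty and Spred proteins, 2 rose and 1 fell (median 0.14). Mknk1, a kinase gene downstream of ERK, was 19.3 ± 6.18 CPM in knockout lines and 9.44 ± 1.87 CPM in WT lines (adjusted p = 0.020). Every knockout line lay above every WT line in Mknk1. It was not called on log2(TPM + 1) (adjusted p = 0.082) or on log2(TPM + 0.1). Cav1, the gene for caveolin-1, was 616 ± 409 CPM in knockout lines and 187 ± 65.5 CPM in WT lines (adjusted p = 0.020). Dyrk1a, a kinase gene, was 70.8 ± 7.63 CPM in knockout lines and 99.9 ± 17.9 CPM in WT lines (adjusted p = 0.034), which held with knockout replicate 2 or 6 or WT replicate 2 or 5 left out, and was lost with any other line left out (adjusted p up to 0.076).

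A further list held 31 other transcripts, most of them known to be induced by ERK signalling, to act in it or to encode a protein it opposes. The list also holds Phlda2 and Phlda3, which are named here as relatives of Phlda1 and not as known ERK targets. Of the 31, 2 rose and 3 fell (median -0.21). Ier3, an immediate early gene, was 105 ± 20.6 CPM in knockout lines and 290 ± 155 CPM in WT lines (adjusted p = 0.0068). Bcl2l11, which encodes the death protein BIM that ERK opposes, was 25.7 ± 4.56 CPM in knockout lines and 46.1 ± 7.81 CPM in WT lines (adjusted p = 0.0082). Phlda2, a relative of Phlda1, was 2.91 ± 1.33 CPM in knockout lines and 7.95 ± 4.49 CPM in WT lines (adjusted p = 0.033), a call lost without knockout replicate 1, 3 or 7 or WT replicate 2 or 3 (adjusted p up to 0.068) and without both knockout replicate 2 and WT replicate 3 (adjusted p = 0.082). Myc was 304 ± 35.2 CPM in knockout lines and 187 ± 34.1 CPM in WT lines (adjusted p = 0.010). It was not called on log2(TPM + 1) (adjusted p = 0.053) or on log2(TPM + 0.1). The other risen gene was Phlda3, a further relative of Phlda1, named outside the rule for naming genes. It was 262 ± 71.1 CPM in knockout lines and 133 ± 53.0 CPM in WT lines (edgeR, adjusted p = 0.038). Every knockout line lay above every WT line in Phlda3. Its call was lost in at least 7 of 13 fits that left out 1 line, where Myc alone of this list rose. On log2(TPM + 0.1), 0 genes of this list rose. The log2 fold changes of Phlda3 under other fits were not examined. Without both knockout replicate 2 and WT replicate 3, 1 gene of this list rose and 2 fell. Of 15 other ETS factors tested, edgeR called 0 in either direction, 0 passed at an unadjusted p under 0.05, DESeq2 called 1 higher and limma-voom none, and the genes with the smallest p were Ehf (320 ± 247 CPM in knockout lines and 123 ± 102 CPM in WT lines, adjusted p = 0.23) and Elf3 (33.3 ± 19.8 CPM in knockout lines and 20.1 ± 4.41 CPM in WT lines, adjusted p = 0.24).

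**Figure D5:**
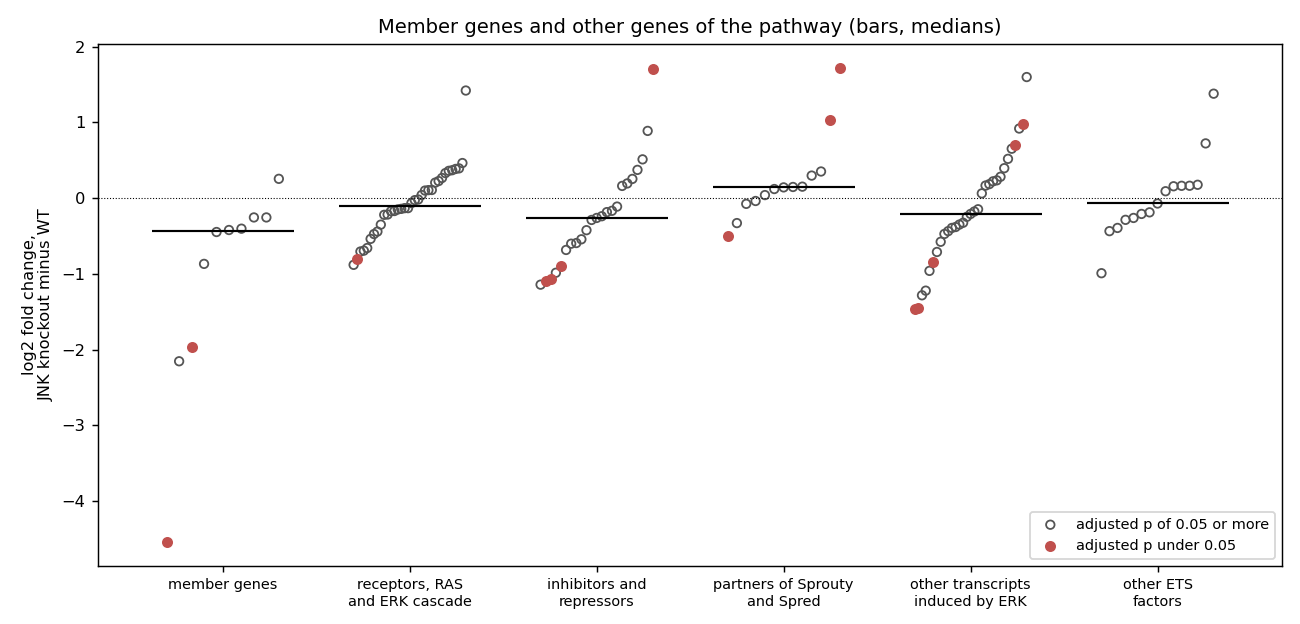
Log2 fold change (JNK knockout minus WT) of the 10 member genes and of the tested genes of 5 pathway lists, each point 1 gene, filled where the adjusted p was under 0.05, with bars for medians. Spry4 at -4.54 lies lowest of all genes shown, and the medians run from -0.43 for the member genes to 0.14 for the partners of Sprouty and Spred.

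The genes most like Spry4 in log2 CPM over the 13 lines, out of 10642 with a mean of at least 5 CPM, were Nacc2 (Pearson's r = 0.94), Ak3 (0.93), Myo7a (0.92), Ano1 (0.91) and Trabd2b (0.91). These r values include the difference between groups and are given as a description. Myo7a, an unconventional myosin gene, was 0.162 to 1.49 CPM in knockout lines and 6.45 to 167 CPM in WT lines. Ano1, a chloride channel gene, was 92.5 to 186 CPM in knockout lines and 299.9 to 1141 CPM in WT lines, with WT replicate 3 highest for both. The genes most like Etv5 were 4931406C07Rik (0.97), Numb (0.96), Col1a2 (0.95), Fermt2 (0.95) and Dpysl5 (0.94). All 5 were highest in WT replicate 3, with 1386 CPM of 4931406C07Rik there against at most 86.6 CPM in the other WT lines, and 724 CPM of Fermt2 against at most 183 CPM. Numb, a Notch antagonist gene, was 34.4 to 54.9 CPM in knockout lines, 315 CPM in WT replicate 3 and at most 79.0 CPM in the other WT lines. Col1a2, a collagen gene, was at most 0.609 CPM in knockout lines, 160 CPM in WT replicate 3 and at most 12.4 CPM in the other WT lines. Over the 12 lines without WT replicate 3, r with Etv5 was 0.88 for 4931406C07Rik, 0.81 for Numb, 0.91 for Col1a2, 0.77 for Fermt2 and 0.96 for Dpysl5, and r with Spry4 was 0.87 to 0.92 for its 5 genes. All these genes were picked with WT replicate 3 included, and r without it still includes the difference between groups. Col1a2 and Dpysl5 reached the mean of 5 CPM only through WT replicate 3. The mean of the 10 genes, each standardised, was followed most closely by Tecpr1, Ier3, Sp4, Zfp704 and Myo7a (0.91 to 0.92, and 0.86 to 0.91 without WT replicate 3).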

How the data were processed

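The authors deposited expected counts per gene, made with RSEM after cutadapt, and TPM values made with RSEM, per the submitters' processing notes, which name the builds mm10 and GRCm38. For the aligner, annotation, strand setting and versions, nothing was stated in the sources used here. Deposited expected counts were rounded to whole numbers, filtered with filterByExpr, scaled by TMM and tested in edgeR (4.0.16, with R 4.3.3) by quasi-likelihood, group being the only term. Benjamini-Hochberg adjustment ran over all 13058 genes, with a threshold of 0.05. The SE is the log2 fold change over the square root of F. Depth was similar across lines, and counting error is small except for Spry4 in knockout lines. Every one of 36 within-group pairs of libraries differed by more than sampling noise (chi-square per gene of at least 78.1).

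Positions come from GENCODE M21 and upstream sequences from RefSeq. Correlations used log2 CPM with a prior count of 2 within each group, with exact permutation tests, two-sided (SciPy 1.17.1). Genes were named by rule: the 10 members, Mapk8 and Mapk9, in each list up to 4 changed genes taken by adjusted p (where none changed, the 2 smallest p), and the 5 genes most like Spry4, Etv5 and the members' mean. Erf, Elk1, Elk3 and Elk4 each stand in 2 lists, and Cop1 was found under the synonym Rfwd2. The members and lists were chosen with earlier results of these data known. Alternatives were other scalings, DESeq2 1.42.0, limma 3.58.1 (voom, and log2 TPM with pseudocounts of 1 and 0.1), other filters, WT replicates 4 and 5 summed, and each line left out.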

Additional observations from a re-analysis of the deposited data

Results flagged for a closer look

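Dixon's rule sets the gap between an outermost line and the next against the range of the group. In 6 of 20 sets of lines (10 genes in each group), the gap of the highest line exceeded Dixon's 95% limit. For normally distributed values about 1 in 20 sets passes that limit. CPM were used here without a log, so that rate may not hold, and log2 CPM were not examined in this way. In WT replicate 3 these were Spry4 at 67.1 CPM (next 10.9 CPM), Etv1 at 187 CPM (next 64.6 CPM) and Etv5 at 1166 CPM (next 260 CPM). In knockout replicate 2 they were Spry4 at 2.38 CPM (next 1.04 CPM) and Spred3 at 22.6 CPM (next 12.8 CPM). In knockout replicate 7 it was Phlda1 at 879 CPM (next 340 CPM). No lowest line exceeded the limit. WT replicate 3 had the highest mesenchymal marker sum of the WT lines and knockout replicate 2 that of the knockout lines, and the part of this in the flagged values was not tested.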

How the results depend on the processing

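The call of Spry4 held under each alternative that gave an adjusted p. Of the counts of changed genes, 566 higher and 545 lower in the reported fit, those by DESeq2 were 1359 higher and 1095 lower, by limma-voom with sample weights 1410 and 1399, on log2(TPM + 1) 286 and 998, and on log2(TPM + 0.1) 322 and 981. On both TPM scales the split shifted towards lower calls, along with the median of all genes (-0.22 and -0.23 from the reported fit), and the cause was not tested. With 1 line left out, higher genes numbered 324 to 649 and lower genes 316 to 592, and lower members 1 to 2. The log2 fold change of Phlda1 was -0.12 on log2(TPM + 1) and on log2(TPM + 0.1), and -0.22 without knockout replicate 7. The fit without both knockout replicate 2 and WT replicate 3, chosen after seeing the data like the TPM means and likeness values without WT replicate 3, gave 492 higher and 522 lower genes, and 0.57 for Phlda1. No paired analysis was possible because the labels carry no replicate numbers shared between the groups. Depth limited only Spry4, with 217 reads over the knockout lines.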
